A study of Canis lupus familiaris with 4 samples.

Results

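MMP7, MMP15, MMP16, PLAU, TIMP3, SERPINI2, SPINT1 and SPINT2 encode 4 proteases and 4 protease inhibitors of the mammary extracellular matrix and cell surface. The 8 genes were chosen by name, with their levels in carcinoma and control already known, and all 8 were found by symbol among the 11277 genes of the count tables and passed the filter on low counts. Their differences between the tissues are therefore described and not tested. The libraries T1 and T2 hold RNA of mammary ductal carcinoma and the control libraries C1 and C2 that of non-tumor mammary tissue next to it, from 6 female dogs of different breeds, not neutered and 5 to 14 years old, all with early-stage disease. Each library was a pool of 3 dogs, and same-numbered libraries came from the same dogs, so that C1 and T1 form pool 1 and C2 and T2 form pool 2. The control tissue was taken beside the tumor of the same animals and is not tissue of healthy dogs. An n of 2 counts pools, and spread among individual dogs cannot be seen.

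Matrix metalloproteinases are zinc-dependent endopeptidases that are made as inactive proenzymes and cleave collagens, proteoglycans and cell surface proteins. MMP7 (matrilysin) is secreted mainly by epithelial cells, while MMP15 and MMP16 belong to the membrane-type enzymes that stay anchored at the cell surface, and TIMP3 is a tissue inhibitor of metalloproteinases that binds to the matrix. PLAU (urokinase) converts plasminogen to plasmin, SERPINI2 belongs to the serpins, which trap serine proteases in a covalent complex, and SPINT1 and SPINT2 are membrane-bound Kunitz inhibitors of matriptase and of the protease that activates hepatocyte growth factor. In the mammary gland, matrix proteases and their inhibitors are known for their part in the branching and involution of the epithelium.

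Depth differed between the pools, with 32352002 and 35496260 counts in C1 and T1 and 4027367 and 3236218 counts in C2 and T2. Levels are CPM after TMM scaling, that is, counts per 1000000 counts of the scaled library total. A single count was worth 0.0339 and 0.0286 CPM in pool 1 (C1 and T1) and 0.232 and 0.297 CPM in pool 2 (C2 and T2). Luminal epithelial markers were present at similar summed levels in all libraries, from 1062 to 1180 CPM over the 6 measured of 9 listed. CDH1 made up 670, 514, 647 and 567 CPM of the sum in C1, C2, T1 and T2, so the sum says little of the others. In both pools FOXA1 and EPCAM were lower in carcinoma, and KRT19, ELF3 and GATA3 were higher. The 5 measured of 8 basal and myoepithelial markers summed to 583 and 728 CPM in control and 897 and 1158 CPM in carcinoma. In edgeR on all libraries, none of the 5 was called without the pools as a block, and KRT5 and OXTR were called higher with it. DESeq2 without the block also called KRT5 (adjusted p = 0.00103) and OXTR (adjusted p = 0.0113) higher. In both pools KRT5, MYLK and OXTR were higher in carcinoma, and TP63 and ACTA2 were lower. TP63 was 130 and 126 CPM in control against 97.6 and 93.1 CPM, and ACTA2 was 22.5 and 39.2 CPM against 12.5 and 30.6 CPM. Skeletal muscle markers (4 of 4 measured lower) summed to 1769 and 2901 CPM in control against 21.4 and 27.1 CPM in carcinoma, and MYLPF, one of them, was at 0 in T2. Neutrophil markers (3 of 3 measured higher) summed to 9.75 and 9.27 CPM in control against 115 and 109 CPM in carcinoma. Chondrocyte markers (2 of 6 higher, or 3 of 6 with the pools as a block) summed to 95.5 and 108 CPM in control and to 805 and 1185 CPM in carcinoma, of which ACAN made up 580 and 845 CPM and COL2A1 122 and 237 CPM, while COL9A1 was 31.8 and 39.9 CPM in control and 22.0 and 21.4 CPM in carcinoma. Fibroblast markers (1 of 4 lower in edgeR, or 3 of 4 with the block) summed to 4518 and 4975 CPM against 1710 and 2174 CPM. LUM, not called in edgeR without the block, was called lower by DESeq2 without it (adjusted p = 0.00249). Blood endothelial markers (3 of 4 lower) summed to 532 and 577 CPM against 243 and 251 CPM. T cell markers (2 of 3 lower, CD3E and CD8A, or 3 of 3 with the block) summed to 24.1 and 20.2 CPM against 7.87 and 7.73 CPM. Neither call held in all settings. CD3E was not called when any 1 library was left out. CD8A, with 4 counts in T2, was not called by DESeq2 (adjusted p = 0.0630), which did call CD3E (adjusted p = 0.0288). The 3 measured macrophage markers summed to 160 and 187 CPM in control and 118 and 153 CPM in carcinoma, and no adipocyte marker was measured (0 of 5). Here and below, a gene that was not measured is absent from the deposited counts, and its level is not known. By the paper's account the genes identified are only part of those in the dog reference. The part of these cell types in the values of the 8 genes was not tested. In bulk tissue, fewer cells of a type and less RNA per cell cannot be told apart.

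Of the 8 genes, 7 had a higher mean in carcinoma and 1, MMP16, a lower one. In 6 of the 7 both carcinoma libraries lay above both control libraries, as they did in 29.6% of all 11277 genes. MMP16 had both carcinoma libraries below both controls, as did 28% of all genes. Since this contrast was known when the genes were chosen, nothing is read from these counts.

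**Figure D1:**
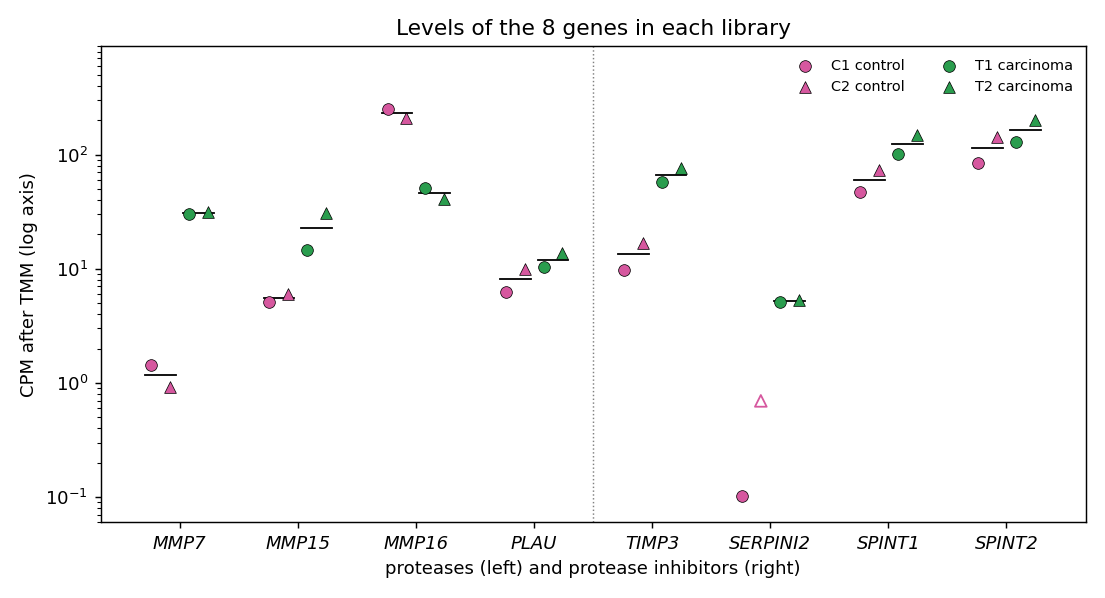
CPM after TMM (log axis) of the 4 protease genes (left of the dotted line) and the 4 inhibitor genes (right) in each library, with control in pink, carcinoma in green, circles for pool 1, triangles for pool 2 and bars at group means. The hollow triangle is the count of 0 of SERPINI2 in C2, drawn at the limit of 0.695 CPM that it allows. MMP7 and SERPINI2 show the widest gaps between the tissues, and SPINT2 is the gene whose groups overlap.

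Among the proteases, MMP7 was low in control tissue. C1 and C2 stood at 1.42 and 0.927 CPM (42 and 4 counts), and T1 and T2 at 30.5 and 31.5 CPM (1065 and 106 counts). The carcinoma libraries lay close together and far above both controls. Carcinoma exceeded control 21.4-fold in pool 1 (95% interval 15.7 to 29.9) and 34.0-fold in pool 2 (12.9 to 127). These intervals, here and below, are exact binomial intervals for the ratio of 2 libraries and cover counting error only. The interval of pool 2 is wide because C2 held 4 counts.

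MMP15 was higher in carcinoma as well, to an unequal degree in the pools. C1 and C2 held 5.08 and 6.03 CPM, and T1 and T2 held 14.7 and 30.9 CPM. Both carcinoma libraries were above both controls, and T2 was 2.10 times as high as T1 (1.68 to 2.60). The ratio of carcinoma to control was 2.90 in pool 1 (2.41 to 3.50) and 5.13 in pool 2 (3.31 to 8.22). The fitted log2 fold change was 2.02 over all libraries and 1.43 without T2.

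MMP16, the other membrane-type gene, went the opposite way. It reached 253 CPM in C1 and 210 CPM in C2, against 51.4 CPM in T1 and 40.7 CPM in T2. Both carcinoma libraries were well below both controls, and within each tissue pool 1 was slightly above pool 2. Control exceeded carcinoma 4.92-fold in pool 1 (4.67 to 5.18) and 5.15-fold in pool 2 (4.30 to 6.21). The length over which the tables count MMP16 is 289496 bases, near the span of the gene with introns, and reads from introns and exons are not separated. CPM of different genes are not compared with each other here for that reason.

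PLAU differed least among the proteases. C1 and C2 were at 6.23 and 9.97 CPM (184 and 43 counts), and T1 and T2 at 10.3 and 13.7 CPM (361 and 46 counts). The groups did not overlap, but C2 and T1 were almost equal. The ratio of carcinoma to control was 1.66 in pool 1 (1.38 to 1.99) and 1.37 in pool 2 (0.886 to 2.13).

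Among the inhibitors, TIMP3 was clearly higher in carcinoma. The control libraries had 9.85 CPM (C1) and 16.9 CPM (C2), and the carcinomas 57.9 CPM (T1) and 76.1 CPM (T2). Both carcinoma libraries stood far above both controls, and in each tissue pool 2 was above pool 1. Carcinoma exceeded control 5.87-fold in pool 1 (5.19 to 6.66) and 4.50-fold in pool 2 (3.46 to 5.92).

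SERPINI2, known as a serpin of myoepithelial and pancreatic cells, was at the edge of detection in control tissue. C1 held 3 counts and C2 held 0, against 179 counts in T1 and 18 in T2. On the CPM scale this was 0.102 in C1, 5.12 in T1 and 5.35 in T2, and the count of 0 in C2 allows up to 0.695 CPM (3 counts). The carcinoma libraries were alike, with a T2 to T1 ratio of 1.05 (0.606 to 1.70). Carcinoma exceeded control 50.4-fold in pool 1 (17.0 to 247). In pool 2 the ratio was 7.70 with C2 set to its limit of 3 counts. That value leaves out the counting error of the 18 counts in T2 and is not a 95% bound. Of the basal and myoepithelial markers, KRT5 was 164 and 259 CPM in control and 353 and 572 CPM in carcinoma, and TP63 was 130 and 126 CPM against 97.6 and 93.1 CPM.

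SPINT1 was higher in carcinoma by a similar ratio in both pools. C1 and C2 showed 47.2 and 73.5 CPM, and T1 and T2 showed 101 and 149 CPM. The carcinoma libraries were above both controls, and pool 2 was above pool 1 in each tissue. The ratio of carcinoma to control was 2.15 in pool 1 (2.02 to 2.29) and 2.03 in pool 2 (1.76 to 2.34).

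SPINT2 had the ratio nearest to 1 of the 8 genes in pool 1, and its groups overlapped. The controls were at 84.2 CPM (C1) and 144 CPM (C2) and the carcinomas at 131 CPM (T1) and 201 CPM (T2), so that C2 lay above T1. Within the same dogs carcinoma was higher in both cases, 1.55-fold in pool 1 (1.48 to 1.63) and 1.40-fold in pool 2 (1.25 to 1.56). Both SPINT genes are known to be expressed in epithelium. The 6 measured luminal epithelial markers had adjusted p-values over 0.05 in edgeR without the pools as a block and in DESeq2. Their edgeR log2 fold changes ran from −0.83 (FOXA1, adjusted p = 0.0805) to 0.85 (ELF3, adjusted p = 0.424). Between these lay −0.32 for EPCAM, 0.04 for CDH1, 0.22 for KRT19 and 0.23 for GATA3. With the block, none was called at the log2 threshold of 1. The edgeR adjusted p with the block was 5.85e-11 for FOXA1, 1.57e-08 for ELF3 and 8.79e-07 for EPCAM. It was 0.00303 for KRT19, 0.00717 for GATA3 and 0.619 for CDH1.

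**Figure D2:**
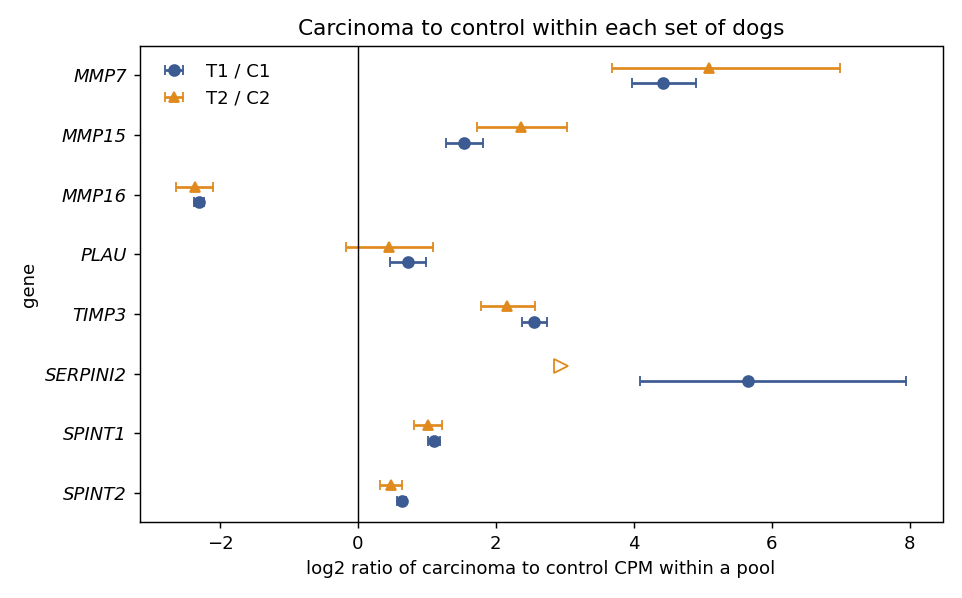
Log2 ratio of carcinoma to control CPM within pool 1 (T1 over C1, blue circles) and within pool 2 (T2 over C2, orange triangles) for each gene, with 95% counting intervals as bars. The hollow triangle marks the ratio of SERPINI2 in pool 2 with C2 set to 3 counts (7.70-fold, drawn on the log2 scale). It leaves out the counting error of T2. The intervals of both pools overlap for MMP7, MMP16, PLAU, TIMP3, SPINT1 and SPINT2, and those of MMP15 meet between 3.31 and 3.50.

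The difference between the pools was not used in choosing the genes and could be tested. It compares the 2 sets of 3 dogs, together with their age, the depth of the libraries and whatever else differed between the pools. These cannot be told apart, and by the study's account the dogs of pool 1 were older on average. Each pool is a single set of dogs, whose control and carcinoma libraries serve as its replicates. The p-values and standard errors below therefore do not measure spread between sets of dogs. An adjusted p under 0.05 was found for 6 of the 8 genes in edgeR's quasi-likelihood test with tissue in the model, 5 of them higher in pool 2 and 1 lower. Of all genes, 43.3% had such a p, 23.8% with a higher and 19.4% with a lower level in pool 2. SPINT2 was 172 CPM on average in pool 2 and 107 CPM in pool 1, a log2 difference of 0.69 (standard error 0.07, adjusted p = 7.01e-18, edgeR). SPINT1 differed by 0.59 (standard error 0.08, adjusted p = 7.13e-12, edgeR), TIMP3 by 0.50 (standard error 0.11, adjusted p = 8.55e-05) and PLAU by 0.53 (standard error 0.20, adjusted p = 0.0220).

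MMP15 had the largest pool difference among the 8 genes, 0.83 on the log2 scale (standard error 0.18, adjusted p = 2.63e-05, edgeR). It came with a T2 to T1 ratio of 2.10 (1.68 to 2.60) and a C2 to C1 ratio of 1.19 (0.751 to 1.81). MMP16 was the gene lower in pool 2, by −0.29 (standard error 0.08, adjusted p = 9.38e-04, edgeR), with ratios of 0.793 in carcinoma and 0.831 in control. MMP7 and SERPINI2, the 2 genes with the largest ratio between the tissues, had log2 pool differences of 0.01 (standard error 0.18) and 0.02 (standard error 0.41), with adjusted p-values of 0.981 and 0.972 (edgeR). At a log2 difference of at least 1, edgeR called 0 of the 8 genes and DESeq2 also 0, while 6 had an unadjusted p under 0.05 in edgeR and 5.96% of all genes were called. DESeq2 gave 4 of the 8 an adjusted p under 0.05 with any fold, namely MMP16, TIMP3, SPINT1 and SPINT2. The edgeR fit has 1 residual degree of freedom and takes its estimate of the spread largely from all genes, on which its small p-values depend.

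**Figure D3:**
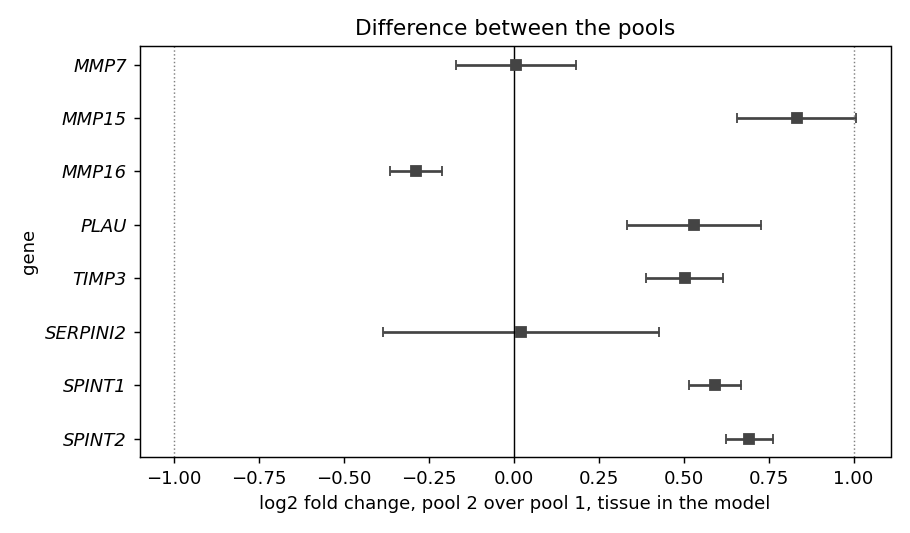
Log2 fold change of pool 2 over pool 1 for each gene, from the model with tissue and pool, with bars of 1 standard error and dotted lines at −1 and 1. MMP15, PLAU, TIMP3, SPINT1 and SPINT2 lie between 0.50 and 0.83, MMP16 lies at −0.29, and MMP7 and SERPINI2 lie at 0.01 and 0.02.

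Other genes of the same protease systems were listed by function, and of 145 listed genes 58 were measured. The rest are absent from the deposited counts, and their levels are not known. The lists were made with earlier results of these data known, so nothing is read from how many of their genes were called. The genes were tested between the tissues with edgeR's quasi-likelihood model over all genes. A call required an adjusted p below 0.05 together with a change of 1 or more on the log2 scale in either direction, which 4.62% of all genes met as higher and 5.24% as lower. Of the 58 genes, 9 rose, 5 fell and 44 did not pass. The median log2 fold change over all 11277 genes was 0.03. The calls rest on 2 residual degrees of freedom and on a spread shared across genes. An exact permutation test of 2 against 2 libraries cannot give a p below 0.333. Unless stated otherwise, adjusted p-values here and for neighboring genes below are from edgeR without the pools as a block. With the block, which leaves 1 residual degree of freedom, most uncalled genes of the lists had an adjusted p under 0.05 at changes short of the threshold. Among them were SERPINF1 (1.65e-13), CSTB (1.87e-11) and APP (8.10e-04, edgeR with the block), while SERPING1, SERPINH1, SERPINB1 and APLP2 stayed above 0.05. The common dispersion, edgeR's spread shared by all genes, was 0.0508 without the block and 0.00216 with it.

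Among 16 measured metalloproteinases and their inhibitors, activators and docking receptors, 2 rose and 14 did not pass (median log2 fold change 0.55). Both that rose encode testicans, matrix proteoglycans that are known to act on metalloproteinase activation. SPOCK3 was 20.3 and 17.8 CPM in control and 64.6 and 60.1 CPM in carcinoma (log2 fold change 1.70, standard error 0.16, adjusted p = 0.00461). SPOCK1 was 2.44 and 1.62 CPM in control and 6.04 and 7.14 CPM in carcinoma, with an adjusted p of 0.0433 that became 0.0872 to 0.139 when any 1 library was left out and 0.0980 in DESeq2. Of the secreted gelatinase MMP2, the control libraries held 355 and 388 CPM and the carcinomas 431 and 572 CPM (log2 fold change 0.43, adjusted p = 0.177). MMP14, the membrane-type collagenase, had a log2 fold change of 0.17 (adjusted p = 0.771), and CD44, a hyaluronan receptor that docks proteases at the cell surface, one of 0.35 (adjusted p = 0.137). With the pools as a block, the log2 fold changes were 0.40 for MMP2, 0.19 for MMP14 and 0.35 for CD44. Their edgeR adjusted p-values were then 7.56e-12, 0.00799 and 5.34e-10, and none was called.

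Since same-numbered libraries share dogs, the fit with the pools as a block bears on genes that vary between pools. With the block, 4 genes of the list were called, against 2 without it, and 13.9% of all genes were called in either direction. The added genes were MMP9 and MMP13, both singled out after their values were seen. MMP9, the gelatinase of neutrophils and macrophages among other cells, stood at 18.1 and 41.0 CPM in C1 and C2 and at 92.1 and 233 CPM in T1 and T2. Both carcinoma libraries were above both controls, and pool 2 was above pool 1 in each tissue. Its log2 fold change was 2.51 (standard error 0.60, adjusted p = 0.0575, edgeR without the block) and 2.41 with the block. It was also called by DESeq2 (adjusted p = 0.0230) and by edgeR without C2, T1 or T2 (adjusted p from 0.00637 to 0.0171), but not without C1 (1.91, adjusted p = 0.137). Without 1 library the log2 fold change ran from 1.70 (without T2) to 3.15 (without C2). MMP13, a collagenase of cartilage and stroma, was 1.15 and 0.232 CPM in control and 4.12 and 2.97 CPM in carcinoma (adjusted p = 0.0801 without the block). The neutrophil markers S100A8 and S100A9 rose in the same libraries, from 2.64 and 4.40 CPM to 39.9 and 46.7 CPM and from 5.93 and 4.64 CPM to 56.7 and 48.2 CPM, and their part in its level was not tested.

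In the plasminogen system, 2 of 5 measured genes fell and 3 did not pass (median log2 fold change −0.92). CLEC3B, which encodes the plasminogen-binding protein tetranectin, fell from 24.0 and 73.3 CPM in control to 1.57 and 1.78 CPM in carcinoma (log2 fold change −4.87, standard error 0.69, adjusted p = 0.0125, and −3.87 without C2 and −5.54 without C1). VTN, which encodes vitronectin, an adhesive protein of plasma and matrix, fell from 4.81 and 6.03 CPM to 0.372 and 1.19 CPM (log2 fold change −3.34, standard error 0.58, adjusted p = 0.0233, and −2.19 with an adjusted p of 0.0914 without T1).

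The genes of this system that did not reach the call included SERPINE2, an inhibitor of thrombin, PLAU and plasmin, with a change of 0.92 on the log2 scale (standard error 0.17, adjusted p = 0.0263). KLKB1, which encodes plasma prekallikrein, had one of −0.92 (standard error 0.17, adjusted p = 0.0288). Both had an adjusted p under 0.05 and a fold change just short of the threshold. SERPINE2 was called without C1 (1.09, adjusted p = 0.0368) and KLKB1 without C2 (−1.04, adjusted p = 0.0346). SERPING1, the inhibitor of the first complement proteases and of kallikrein, had a log2 fold change of −0.08 (adjusted p = 0.654).

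Of the 10 other serpins measured, 1 rose and 9 did not pass (median log2 fold change 0.39). SERPINA1, the inhibitor of neutrophil elastase, rose from 27.3 and 23.2 CPM in control to 95.5 and 111 CPM in carcinoma (log2 fold change 2.01, standard error 0.16, adjusted p = 0.00308). SERPINF1, an antiangiogenic serpin without inhibitory activity, was 68.7 and 48.2 CPM in control and 40.5 and 35.4 CPM in carcinoma (log2 fold change −0.63, adjusted p = 0.137). SERPINH1, the collagen chaperone of the endoplasmic reticulum, had a log2 fold change of −0.16 (adjusted p = 0.853), and SERPINB1, an intracellular elastase inhibitor, one of −0.07 (adjusted p = 0.792). With the block 2 serpins were called, the second being SERPINB11 (1.66 and 2.32 CPM in control, 6.41 and 3.87 CPM in carcinoma), which was singled out after its values were seen.

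The membrane serine proteases that SPINT1 and SPINT2 inhibit, with the growth factor axis downstream of them, gave 2 higher and 1 lower among 13 measured genes (median log2 fold change 0.19). HGF, the ligand that is activated by these proteases, fell from 151 and 105 CPM in control to 23.0 and 16.1 CPM in carcinoma (log2 fold change −2.67, standard error 0.26, adjusted p = 0.00496). Its receptor gene MET was 147 and 118 CPM in control and 160 and 126 CPM in carcinoma (log2 fold change 0.11, standard error 0.18, adjusted p = 0.717). ST14, which encodes matriptase, was 8.03 and 12.3 CPM in control and 11.7 and 22.6 CPM in carcinoma (log2 fold change 0.75, adjusted p = 0.323). With the block, the edgeR adjusted p was 5.72e-05 for ST14 (log2 fold change 0.63, not called) and 0.126 for MET. HGF is made mainly by stromal cells, and the fibroblast marker DCN fell from 1192 and 1011 CPM to 141 and 111 CPM in the same libraries (log2 fold change −3.13). The other measured fibroblast markers fell less and were not called in edgeR without the block. Their log2 fold changes were −1.59 for COL1A1, −1.04 for LUM and −0.77 for COL1A2. The part of fibroblasts in the level of HGF was not tested.

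The genes of this group that rose were SCNN1A, a subunit of the epithelial sodium channel, which is cut by membrane serine proteases, and TMPRSS11E, a membrane serine protease of epithelia. SCNN1A was 15.3 and 17.2 CPM in control and 60.9 and 59.5 CPM in carcinoma (log2 fold change 1.90, standard error 0.16, adjusted p = 0.00371). TMPRSS11E was 1.93 and 1.85 CPM in control and 6.15 and 4.46 CPM in carcinoma, with an adjusted p of 0.0451 that became 0.0703 to 0.240 when any 1 library was left out and 0.183 in DESeq2. With the block 6 genes of the group were called. The 3 added were HPN, TMPRSS13 and SCNN1B, singled out after their values were seen. HPN, which encodes the membrane protease hepsin, had 2.71 and 6.95 CPM in C1 and C2 and 6.24 and 20.8 CPM in T1 and T2, so that its groups overlapped while carcinoma was above control within each pool.

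The small inhibitor list holds genes of the Kunitz, whey acidic protein, Kazal and cystatin families, not all of them small or secreted. It had 4 higher and 2 lower genes among 14 measured (median log2 fold change 0.26). Of the Kunitz inhibitors, to which SPINT1 and SPINT2 belong, both that passed fell. TFPI, the inhibitor of the tissue factor pathway, fell from 46.1 and 34.3 CPM in control to 7.50 and 3.87 CPM in carcinoma (log2 fold change −2.71, standard error 0.36, adjusted p = 0.0106, and −3.43 without T1). SPINT3 fell from 16.5 and 24.8 CPM to 4.32 and 4.46 CPM (log2 fold change −2.22, standard error 0.32, adjusted p = 0.0131). The Kunitz-bearing precursor genes APP and APLP2 had log2 fold changes of 0.19 (adjusted p = 0.323) and 0.10 (adjusted p = 0.657).

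Of the 4 that rose, 3 are genes of the whey acidic protein domain family. WFDC2 rose from 6.37 and 8.58 CPM to 37.0 and 44.6 CPM (log2 fold change 2.48, standard error 0.25, adjusted p = 0.00545). WFDC3 rose from 4.20 and 5.33 CPM to 19.2 and 27.7 CPM (log2 fold change 2.31, adjusted p = 0.0114, but adjusted p = 0.0615 without C1). SLPI, an inhibitor of neutrophil elastase and other serine proteases, was called as well (307 and 436 CPM in control, 1000 and 1316 CPM in carcinoma). CST6, a cystatin that inhibits lysosomal cysteine proteases, rose from 27.7 and 30.1 CPM to 75.7 and 73.2 CPM (log2 fold change 1.37, standard error 0.13, adjusted p = 0.00496). CSTB, another cystatin gene, was 38.7 and 23.9 CPM in control and 61.2 and 38.4 CPM in carcinoma (log2 fold change 0.66, adjusted p = 0.264).

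**Figure D4:**
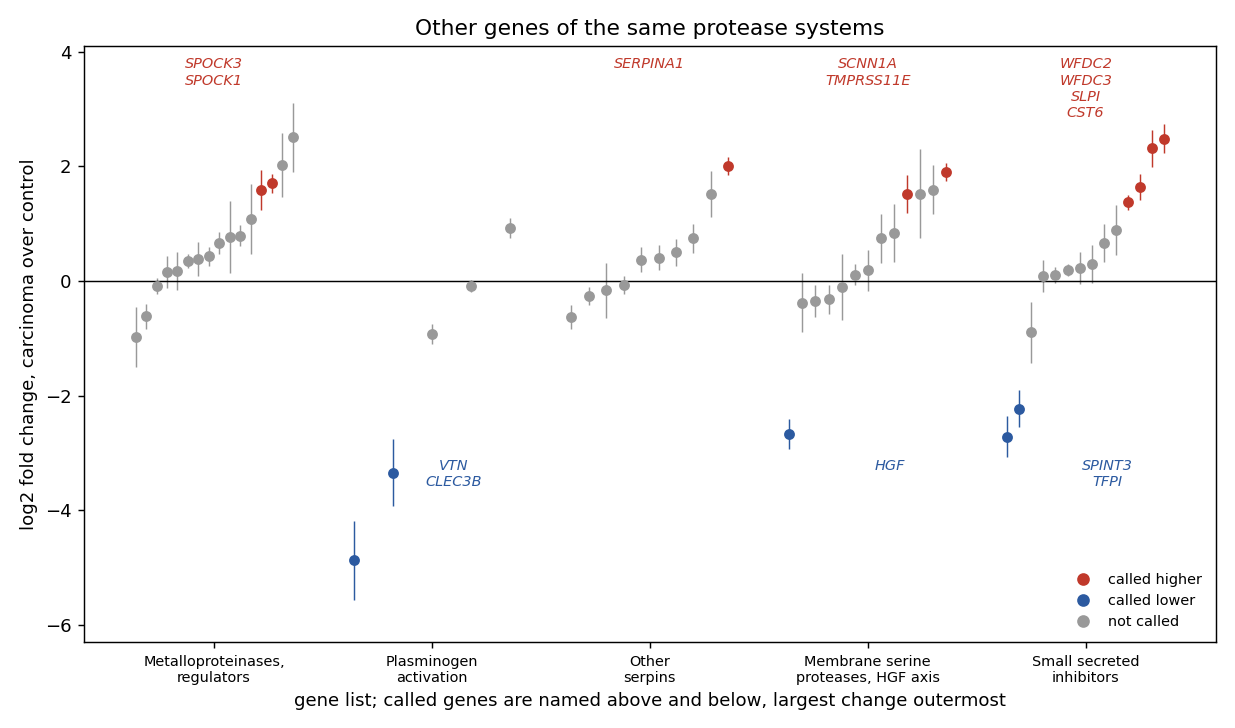
Log2 fold change of carcinoma over control, with bars of 1 standard error, for the 58 measured genes of 5 protease and inhibitor lists that exclude the 8 genes. Red and blue points are the 9 genes called higher and the 5 called lower, named above and below each list, and grey points are the 44 not called. CLEC3B lies lowest at −4.87, and the grey point highest among the metalloproteinase genes is MMP9 at 2.51.

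The genes next to the 8 on their chromosomes were taken from a dog RefSeq gene table, whose assembly may differ from the one behind the counts. It gave 20 neighboring or overlapping genes, 10 of them measured. One of the 10, WDR49, was called in edgeR and the other 9 were not. WDR49 is the protein-coding gene next to SERPINI2, and it rose from 0.948 and 1.16 CPM in control to 37.7 and 33.6 CPM in carcinoma (log2 fold change 5.15, adjusted p = 0.00184). ZBBX, on the other side of SERPINI2, was 3.59 and 3.48 CPM in control and 7.90 and 5.95 CPM in carcinoma (log2 fold change 1.00, adjusted p = 0.106), and with the block it was called. TMEM123 beside MMP7 had a log2 fold change of −0.13 (adjusted p = 0.490), RIPK2 beside MMP16 one of −0.38 (adjusted p = 0.391) and FBXO7 beside TIMP3 one of 0.19 (adjusted p = 0.570). Those of USB1 and CFAP20, on either side of MMP15, were 0.37 and −0.35. VCL and CAMK2G beside PLAU had 0.47 (adjusted p = 0.0501) and 0.37 (adjusted p = 0.267), and RHOV beside SPINT1 had 0.48 (adjusted p = 0.616). TIMP3 overlaps SYN3 in this table, and SYN3 was not analysed here. The libraries were made with a kit that keeps the strand, but the counting tools named by the sources differ and the strand setting behind the tables is not known, so reads of overlapping genes such as TIMP3 and SYN3 may not be fully separated.

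**Figure D5:**
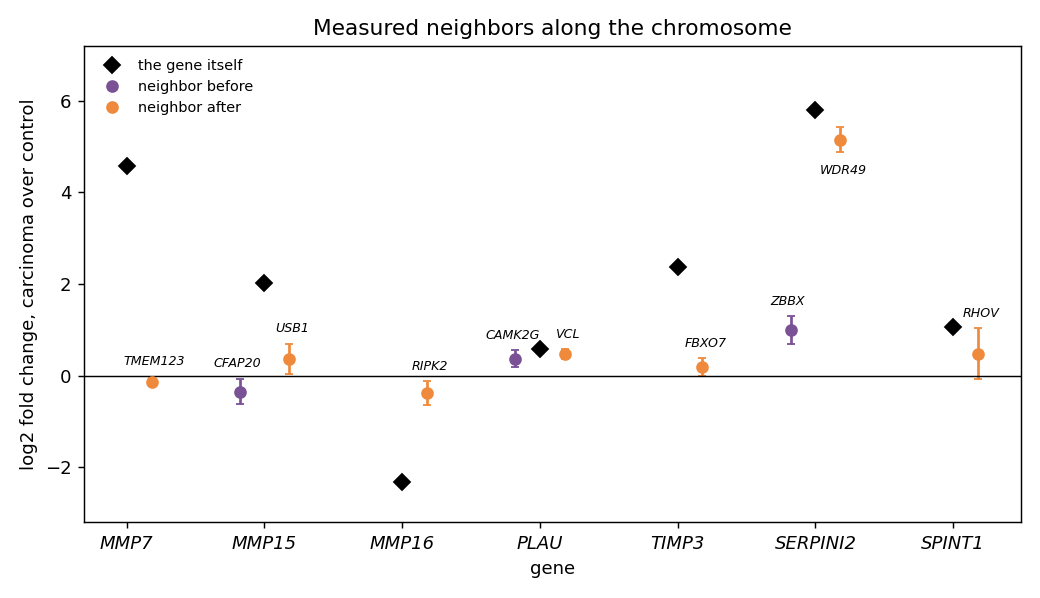
Carcinoma over control (log2 fold change) for 7 of the 8 genes (black diamonds, SPINT2 has no measured neighbor) and for their measured neighbors before (purple) and after (orange) them on the chromosome, with bars of 1 standard error. WDR49, beside SERPINI2, is the highest of the neighbors at 5.15, and the others lie between −0.38 and 1.00.

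By pattern over the 4 libraries, the genes nearest to each of the 8 were found as the Euclidean distance of centered log2 CPM. For MMP7 these were OLFM4 (distance 0.27), which encodes the secreted glycoprotein olfactomedin 4 (6.57, 5.33, 157 and 134 CPM in C1, C2, T1 and T2), and SFRP2 (0.40), a secreted modulator of Wnt signaling. For SERPINI2 they were HAPLN1 (0.44), a link protein of cartilage, and again SFRP2 (0.50). For MMP16 they were CD36 (0.12), a fatty acid receptor of adipocytes, macrophages and endothelium, with 150, 136, 29.9 and 24.4 CPM, and AREG (0.13), a ligand of the epidermal growth factor receptor. TIMP3 was nearest to CAMK2A (0.24) and KY (0.27), MMP15 to RNASEH2A (0.14) and TMEM25 (0.15), and PLAU to SELENBP1 (0.04) and SLC50A1 (0.05). SPINT1 was nearest to SGCA (0.06) and ST6GALNAC2 (0.06), and SPINT2 to C15orf52 (0.03) and ENC1 (0.05). Such nearness over 4 libraries says that tissue and pool ratios are of similar size and nothing more.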

How the data were processed

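The deposited tables give raw counts per gene as whole numbers, in 1 table per library. The paper's methods give TopHat2 for the mapping and HTSeq (default settings) for the counting, whereas the submitters' processing notes list STAR and featureCounts, with FastQC and DESeq2, and the tables have the layout of featureCounts. The libraries were stranded by the paper, but the tools named differ in how they treat strand by default, so the strand setting behind the tables is not known. The build was not given in the sources used here, and no sequence or coordinate is printed. Gene lengths in the tables had a median ratio of 0.970 to RefSeq gene spans over 9411 matched symbols (64.8% within 20% of the span), with 0.448 for MMP15 and 1.47 for PLAU.

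Samples were grouped by their GEO labels. The main test was run with edgeR 4.0.16 in R 4.3.3 (filterByExpr, TMM, quasi-likelihood test, Benjamini-Hochberg over all 11277 genes, all of which passed the filter). A standard error is the size of the log2 fold change over the root of its F statistic. DESeq2 1.42.0 was an alternative, and figures were drawn with matplotlib 3.10.9. The tests were tried on simulated counts first. Replicates differed by more than counting error (chi-square per degree of freedom 46.0 between controls and 31.7 between carcinomas). By the paper, libraries with the same number share their dogs, and the correlation across genes of their deviations from group means was 0.782. The fit without a block was the main one, since the study's methods name no block in the test.

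The 8 genes and all lists were chosen with earlier results of these data known, and 1 gene of the plasminogen list is not reported here. Named besides the 8 were every called gene of the 5 lists, up to 3 uncalled ones per list with the highest mean CPM, the neighbors and the 2 genes nearest in pattern to each. Marker genes, and others where so stated, were named outside this rule. The alternatives were other size factors, DESeq2, no filter or at least 10 counts in every library, the block, any fold, plain library totals, a prior count of 0.5 in place of 2, and leaving out each library.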

Additional observations from a re-analysis of the deposited data

How the results depend on the processing

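Of 105 counts under alternative settings, 92 stayed within 1.5 times the main count. The setting without a filter repeats the main fit, since every gene passed the filter, and could show no change. With the replicate block, which uses the pairing by dogs, 800 genes in all were higher against 521 without it, and the calls were 4 in the metalloproteinase list, 2 among other serpins, 6 in the matriptase and HGF list and 2 among neighbors. The block left the counts of the plasminogen and small inhibitor lists as they were, and among the marker lists it gave 3 fibroblast calls against 1 and 2 basal and myoepithelial calls against 0 (edgeR). With any fold, 782 genes in all were higher and 4 of the plasminogen list were called. With at least 10 counts in every library, 1 metalloproteinase list gene, 0 plasminogen list genes and 0 neighbors were called (edgeR), since this filter removes SPOCK1, VTN, CLEC3B and WDR49, and it removes MMP7 and SERPINI2 as well.

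Leaving out 1 library gave 342 to 508 higher genes in all (342 without C1), 1 to 2 calls in the metalloproteinase list and 1 to 3 in the plasminogen list (1 without T1). The log2 fold changes of the 8 genes kept their direction in all 85 values under alternative settings, some of which repeat the main fit. Since the genes were chosen on this contrast, nothing is read from that. Of these values, 19 moved by more than the spread between pools, or by more than 0.5 for SERPINI2, which has no ratio in pool 2. The range without 1 library was 0.19 to 0.92 for PLAU, 0.14 to 0.97 for SPINT2 and 0.71 to 1.40 for SPINT1, in fits that do not use the pairing. SERPINI2 has no fold change without C1, and at a prior count of 0.5 its log2 difference was 6.46 against a fitted 5.80. The pool difference could not be tested without 1 library, because no residual degree of freedom remains. The depth of C2 and T2 limits genes under about 1 CPM.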
